A study of Mus musculus with 12 samples.

Results

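The genes described here supply amino acids and serine-derived carbon to the cell, together with the stress factor ATF4 that controls many of them. The members are the 10 genes Slc7a5, Slc3a2, Slc1a5, Asns, Psat1, Phgdh, Shmt2, Mthfd2, Atf4 and Ddit3, taken as every probe set whose only gene symbol in the platform annotation is one of these names. These 10, of 12394 genes with a probe set of their own symbol, held 21 of the 22690 probe sets of the array. Probe sets that the annotation gives to Phgdh together with a second symbol were not members. The cells were T cells with the transgenic 5CC7 receptor, which recognises a moth cytochrome c peptide. They had been transferred into B10.A mice and were sorted from pooled lymph nodes 48 h after peptide was injected into the tail vein. The peptides were MCC, a strong agonist of this receptor, and 102S, a weak one, as the study states. The 4 groups were 102S at 0.2 µg, 102S at 2 µg, MCC at 0.2 µg and MCC at 2 µg, with 3 arrays each and 12 in all. All 4 groups had received transferred cells and a peptide, and no unstimulated cells were analysed here. The labels give neither the age nor the sex of the mice. They do not say whether the arrays of a group came from separate animals. The p-values therefore measure the spread between these samples, which may be technical in part.

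The T cell markers of the label were present, but so were markers of CD8 T and NK cells. The CD3 chains Cd3e, Cd3g and Cd3d lay between 10.01 and 13.06 log2 on all arrays, and Cd4 between 6.80 and 7.75. The B cell genes Cd79a, Ms4a1 and Pax5 lay below the intensity filter (a mean over 12 arrays under 4.48 log2), as did Itgax, Cd14 and Adgre1 of macrophages and dendritic cells. Of the same lists Cd79b passed the filter, with means of 4.47 and 4.86 for 102S at 0.2 and 2 µg and 5.73 and 5.23 for MCC, as did Lyz2, Csf1r and Flt3, whose group means lay between 4.46 and 5.48. Among the CD8 T and NK cell markers, Cd8b1 had means of 7.88 and 7.66 for 102S at 0.2 and 2 µg. For MCC its means were 7.41 and 7.42. In the same order of groups Cd4 had means of 7.12, 7.24, 7.18 and 7.74. Those of Cd8a were 5.97, 5.78, 5.59 and 5.55, and those of Klrd1 8.63, 7.33, 6.27 and 4.65. Whether these readings came from other cells was not tested. Replicate 1 stood apart in every group. Its 4 arrays read 11.72 to 12.27 log2 for Xist, transcribed from the inactive X chromosome, against 4.05 to 5.10 on the other 8, and 3.31 to 4.26 for the Y-linked Eif2s3y against 8.75 to 9.37. By these genes replicate 1 read as female cells and the other arrays as male. The arrays of a group thus did not all share a source of cells. RNA quality was read from the β-actin control, as its 3′ minus its 5′ probe set, a value that is larger in less intact RNA. It ranged from 0.50 to 0.72 log2 for MCC at 2 µg, from 0.74 to 2.33 for MCC at 0.2 µg, from 0.81 to 1.62 for 102S at 2 µg and from 0.76 to 2.35 with 0.2 µg of 102S. The 2 highest readings came from replicate 3 of the 0.2 µg groups.

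T cells that have met antigen take up large amounts of amino acids. SLC7A5 and SLC3A2 together form the transporter of leucine and other large neutral amino acids, and SLC1A5 carries glutamine. Serine is made from a glycolytic intermediate by PHGDH, PSAT1 and, in the last step, PSPH, whose gene is not a member. Mitochondrial SHMT2 then splits serine, and the folate-bound product passes to MTHFD2 and supports purine and thymidylate synthesis. ATF4 is a transcription factor made when amino acids are short or the endoplasmic reticulum is stressed. ASNS, PSAT1, PHGDH, SHMT2, MTHFD2, SLC7A5, SLC3A2 and DDIT3 are known targets of it in other settings. ATF4 is controlled largely at translation, which arrays do not measure.

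Of the serine synthesis genes among the members, Psat1 was higher with the strong agonist at both doses and Phgdh at the low dose. The leucine transporter gene Slc7a5 was called only between the doses of 102S among the matched comparisons. Psat1 was 2.44-fold higher with MCC than with 102S at 2 µg and 1.92-fold higher at 0.2 µg. Phgdh was 1.66-fold higher with MCC at 0.2 µg. Slc7a5 was 2.06-fold lower at 2 µg than at 0.2 µg of 102S. Atf4 and Ddit3 passed the test in none of the comparisons, and Asns was too dim to test.

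Counted by 1 probe set per gene, 9 of the 10 genes passed the intensity filter. At 2 µg, 1 of these 9 was higher with MCC than with 102S and 0 lower (limma, Benjamini-Hochberg adjusted over 13556 probe sets), where 4.04% of all probe sets tested were called higher, 6.23% lower and 10.3% in either direction. At 0.2 µg, 2 of 9 were higher and 0 lower, against 7.85% called higher, 6.45% called lower and 14.3% called in all. Of those calls 54.9% were higher with MCC, against 44.6% after median centring of the arrays. Between 2 and 0.2 µg of MCC 0 of 9 were called, against 0.708% of all probe sets called higher, 1.05% lower and 1.76% in all, although 6 of the 9 had an unadjusted p under 0.05, as did 2435 of the 13556 probe sets (18%). Between the doses of 102S 1 of 9 was lower and 0 higher, against 0.509% called lower, 2.66% called higher and 3.16% in all. The groups did not overlap in 5 of 9 genes for the peptides at 2 µg, in 3 of 9 at 0.2 µg, in 5 of 9 for the dose of MCC and in 3 of 9 for the dose of 102S. The corresponding shares of all probe sets were 32.2%, 28.5%, 18.5% and 20.9%. The median difference over the 9 genes was 0.17 log2 for the peptides at 2 µg and 0.05 at 0.2 µg, and -0.10 for the dose of MCC and -0.05 for that of 102S. The medians of all probe sets were -0.04, -0.04, -0.01 and -0.003. The genes had been chosen with earlier results of these arrays known, so their counts are descriptions.

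**Figure D1:**
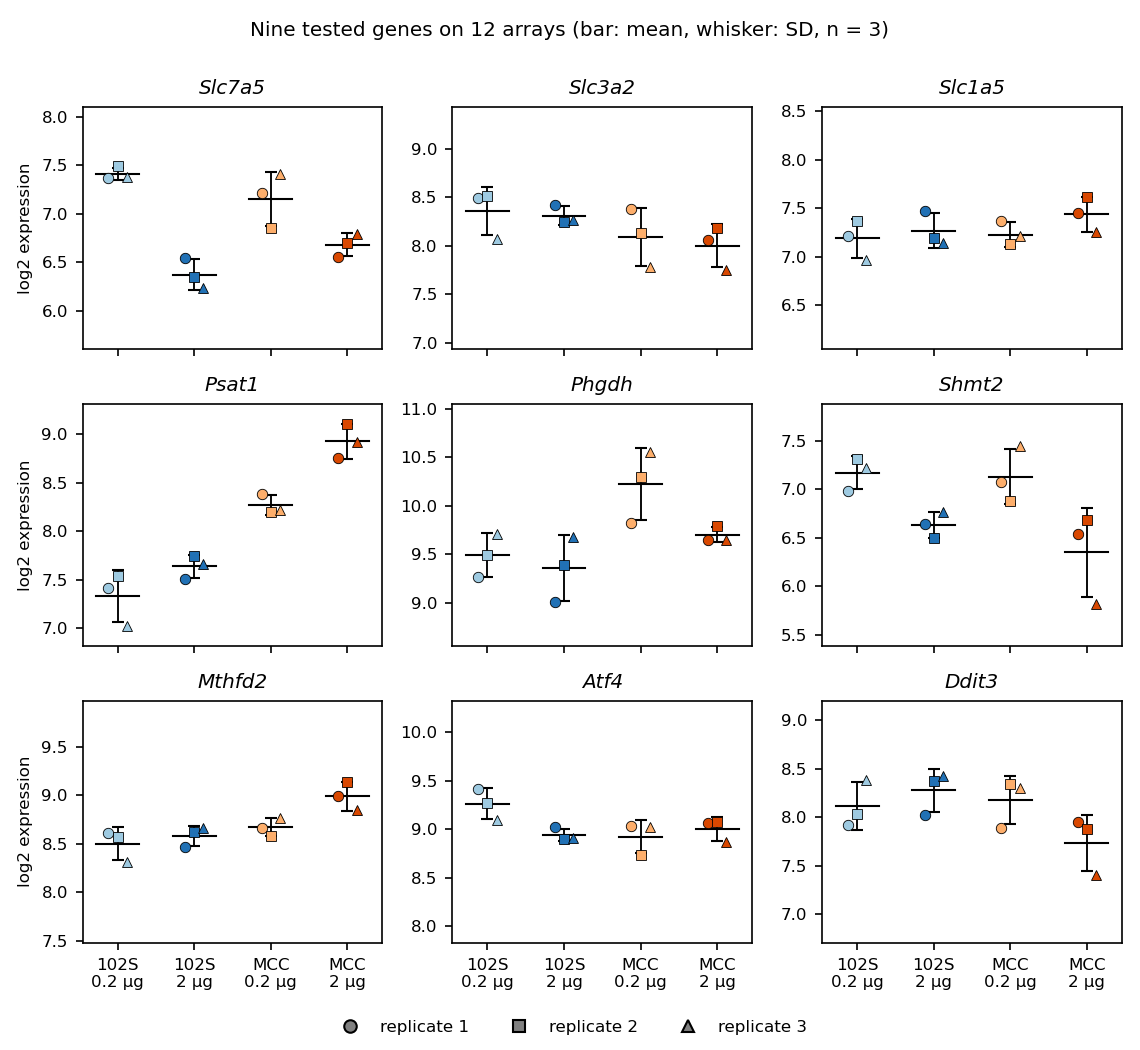
Log2 expression of the 9 tested genes, each by its probe set with the highest mean, in the 4 groups on the horizontal axis; points are arrays, with a symbol per replicate number, lines are means and whiskers SD (n = 3). The Psat1 means run from 7.33 for 102S at 0.2 µg to 8.93 for MCC at 2 µg, whereas Slc7a5 is highest in both 0.2 µg groups, at 7.41 and 7.15. All panels span the same range on the log2 axis.

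**Figure D2:**
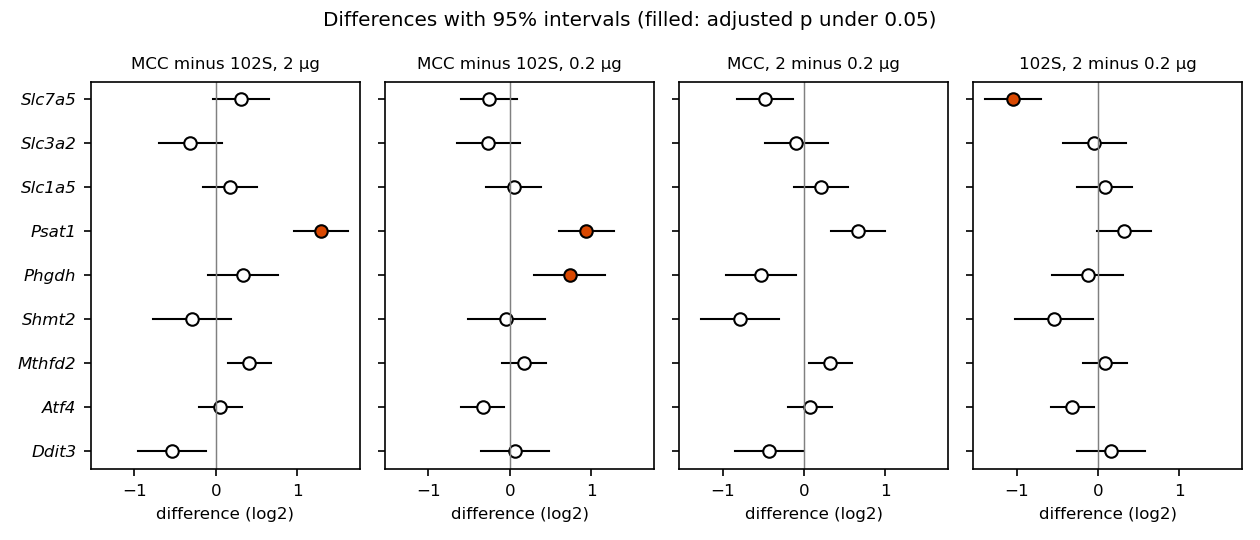
Differences in log2 expression of the 9 tested genes in the 4 matched comparisons, with 95% intervals of the limma fit; filled points had an adjusted p under 0.05. The filled points are Psat1 at 2 µg (1.29), Psat1 and Phgdh at 0.2 µg (0.94 and 0.73) and Slc7a5 for the dose of 102S (-1.04).

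Among the transporters, Slc7a5 fell with the dose of 102S and passed in no other matched comparison. With 0.2 µg of 102S its arrays read 7.37, 7.49 and 7.38 log2, and with 2 µg of 102S 6.54, 6.35 and 6.23. The 2 groups were far apart relative to their spread. With 0.2 µg of MCC the arrays read 7.21, 6.85 and 7.41, and with 2 µg of MCC 6.55, 6.70 and 6.79. Each MCC array at 0.2 µg was above each at 2 µg. The fall from 0.2 to 2 µg of 102S was -1.04 ± 0.16 log2 (SE; adjusted p = 0.00259), and it was -0.83, -1.13 and -1.15 within replicate numbers 1, 2 and 3, so it was present on arrays with high and with low Xist. For MCC the same step was -0.48 ± 0.16 (95% interval -0.82 to -0.13), which did not pass (adjusted p = 0.158). The peptide difference passed at neither dose. It was 0.30 (-0.04 to 0.65) at 2 µg, where the groups were apart by the gap between 6.54 and 6.55, and -0.26 (-0.60 to 0.08) at 0.2 µg, where they overlapped.

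Ordered by mean, Slc7a5 stood at 6.37 ± 0.16 for 102S at 2 µg, 6.68 ± 0.12 for MCC at 2 µg, 7.15 ± 0.28 for MCC at 0.2 µg and 7.41 ± 0.06 for 102S at 0.2 µg (SD, n = 3). No neighbours in that order passed the test. At unmatched doses, 0.2 µg of MCC lay above 2 µg of 102S by 0.78 ± 0.16 (adjusted p = 0.0233), a call that was lost without any 1 of the 102S 2 µg arrays (adjusted p = 0.0564, 0.0874 and 0.101) or without MCC 0.2 µg replicate 3 (0.0998).

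Slc3a2, the heavy chain that carries SLC7A5 to the membrane, was called in none of the comparisons. Its arrays read 8.49, 8.51 and 8.07 log2 for 102S at 0.2 µg, 8.42, 8.24 and 8.27 for 102S at 2 µg, 8.38, 8.13 and 7.78 for MCC at 0.2 µg, and 8.06, 8.18 and 7.75 with 2 µg of MCC. Both MCC groups had the lower means, but only at 2 µg did the peptides not overlap, by 8.18 against 8.24. The difference between MCC and 102S was -0.31 ± 0.18 at 2 µg (95% interval -0.70 to 0.08; adjusted p = 0.325) and -0.26 ± 0.18 at 0.2 µg (-0.65 to 0.12; adjusted p = 0.368). Across the dose step it differed by -0.05 (-0.44 to 0.34) with 102S and by -0.10 (-0.48 to 0.29) with MCC. In 3 of 4 groups the array with the highest β-actin difference had the lowest Slc3a2 reading; with the β-actin difference as a covariate the peptide difference at 2 µg passed, at -0.50 (adjusted p = 0.0064).

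Slc1a5, the glutamine carrier, had the narrowest range of group means of the 9 tested members. Its group means lay between 7.19 ± 0.20 log2 (102S 0.2 µg) and 7.44 ± 0.18 (MCC 2 µg; SD, n = 3), with 7.23 ± 0.13 and 7.27 ± 0.18 between them, and the 12 arrays spanned 6.97 to 7.62. All groups overlapped. The peptide difference was 0.17 (95% interval -0.16 to 0.51) at 2 µg and 0.05 (-0.29 to 0.38) at 0.2 µg. The dose difference was 0.21 (-0.13 to 0.54) for MCC and 0.08 (-0.26 to 0.42) for 102S.

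Asns, which makes asparagine from aspartate with nitrogen from glutamine, gave no usable level. Its 2 probe sets had means of 3.76 and 2.68 log2, both under the filter, and neither was tested. The brighter one ranged from 3.24 to 4.36 over the arrays, with group means of 3.70 and 3.61 for 102S at 0.2 and 2 µg and 3.96 and 3.75 for MCC. All groups overlapped on it. The dimmer one had group means between 2.43 and 2.86.

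Psat1 and Phgdh catalyse successive steps of serine synthesis, and Asns is the classical ATF4 target of the group. RefSeq promoter windows were matched for 8 of the 10 members, in 9 windows of the build GRCm38.p6. The 250 bases before an annotated start of each of these 3 genes are shown. They were chosen because Psat1 and Phgdh were the members that rose with MCC and Asns carries the letters of an ATF4-type element. Psat1 had a second window, at chr19:15924623-15924872, which is not printed. Capitals mark a match to TGATGNAA, the core of the amino acid response element bound by ATF4 with C/EBP partners. Each is written 5′ to 3′ on the gene's own strand, and all 3 genes lie on the minus strand, at chr19:15925060-15925309 for Psat1, chr3:98339970-98340219 for Phgdh and chr6:7693210-7693459 for Asns.
Psat1: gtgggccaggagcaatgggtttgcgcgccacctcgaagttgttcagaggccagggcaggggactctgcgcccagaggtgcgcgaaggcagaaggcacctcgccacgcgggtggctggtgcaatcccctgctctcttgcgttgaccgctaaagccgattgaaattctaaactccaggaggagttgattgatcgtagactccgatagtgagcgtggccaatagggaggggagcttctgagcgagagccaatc
Phgdh: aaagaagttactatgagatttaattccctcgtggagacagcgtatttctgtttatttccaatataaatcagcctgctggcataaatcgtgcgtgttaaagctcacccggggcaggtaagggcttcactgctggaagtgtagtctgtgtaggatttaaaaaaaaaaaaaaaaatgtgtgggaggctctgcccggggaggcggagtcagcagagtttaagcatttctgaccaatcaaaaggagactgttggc
Asns: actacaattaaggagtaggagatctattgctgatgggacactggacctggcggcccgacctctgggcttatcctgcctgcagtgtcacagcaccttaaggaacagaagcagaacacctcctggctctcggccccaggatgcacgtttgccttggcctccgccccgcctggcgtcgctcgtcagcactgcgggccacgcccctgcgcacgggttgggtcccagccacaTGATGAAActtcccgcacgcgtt
TGATGNAA, read on both strands, occurred in 3.45% of 32851 promoter windows of this length. Among the 9 windows of the members it occurred in Asns alone, as TGATGAAA at position -23. The E-box CACGTG, a site of MYC and related factors that does not overlap the first motif, occurred in 6.02% of all windows and in 0 of the 9. These matches describe letters within 250 bases only.

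Psat1, the serine aminotransferase, was higher with MCC at both doses. With 0.2 µg of 102S the arrays read 7.42, 7.54 and 7.02 log2, and with 2 µg of 102S 7.51, 7.75 and 7.66. These 2 groups overlapped. With 0.2 µg of MCC they read 8.38, 8.20 and 8.22, and with 2 µg of MCC 8.76, 9.11 and 8.92. All 6 MCC arrays were above all 6 arrays with 102S, and the 2 MCC groups did not overlap. At 2 µg MCC exceeded 102S by 1.29 ± 0.15 log2 (SE; adjusted p = 0.000352), and at 0.2 µg by 0.94 ± 0.15 (adjusted p = 0.00138). Within replicate numbers 1, 2 and 3 the difference was 1.24, 1.36 and 1.26 at 2 µg and 0.96, 0.66 and 1.20 at 0.2 µg. Both calls held in all 11 alternatives and all 12 omissions of 1 array, with adjusted p-values up to 0.00656 and 0.0191.

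The dose steps of Psat1 did not pass. From 0.2 to 2 µg of MCC it differed by 0.66 ± 0.15 (95% interval 0.33 to 0.99), just short of the threshold (adjusted p = 0.0511), and the step passed without 102S 0.2 µg replicate 3 (adjusted p = 0.0208) or MCC 0.2 µg replicate 1 (0.0336), with median centring (0.0487), quantile normalization (0.0334) or a stricter filter (0.0431), and with replicates 2 and 3 alone (0.0447). With the replicate number as a block, this step and the unmatched doses below also passed, as given at the end. The second probe set of the gene gave 0.20 for the dose step of MCC, which did not pass (adjusted p = 0.645). From 0.2 to 2 µg of 102S it differed by 0.32 ± 0.15 (-0.02 to 0.65). At unmatched doses, 0.2 µg of MCC was above 2 µg of 102S by 0.62 ± 0.15 (adjusted p = 0.0541), and that difference passed without 102S 0.2 µg replicate 3 (0.0205), with quantile normalization (0.0143), a stricter filter (0.0482) or the β-actin covariate (0.00295), and by the second probe set (0.96, adjusted p = 0.0447). In order, the group means (± SD, n = 3) were 7.33 ± 0.27 for 102S at 0.2 µg, 7.64 ± 0.12 for 102S at 2 µg, 8.27 ± 0.10 for MCC at 0.2 µg and 8.93 ± 0.18 for MCC at 2 µg, and no neighbours in it passed the test.

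Markers of division followed the same order of groups as Psat1, and those of CD8 T and NK cells the reverse. Mki67, a marker of cycling cells, had means of 3.96, 8.28, 9.48 and 10.03 log2 in that order, and Top2a 4.88, 7.53, 8.63 and 9.31. Of 7 listed CD8 T and NK cell markers 6 were matched and 5 of them passed the filter. The summed level of the 6 went from 9.70 to 9.83 log2 for 102S at 0.2 µg through 9.01 to 9.09 at 2 µg, to 8.48 to 8.88 for MCC at 0.2 µg and 8.10 to 8.42 with 2 µg of MCC. Not every marker in that sum fell in this order. Cd8b1 had means of 7.41 and 7.42 for MCC at 0.2 and 2 µg. The NK receptor gene Ncr1, below the filter, had means of 3.09, 2.93, 3.19 and 2.99. Klrd1 had the widest range of means, from 8.63 to 4.65. The part of division or of CD8 T and NK cell markers in the results of Psat1, Phgdh and Slc7a5 was not tested. In sorted bulk cells a change in the share of a cell type cannot be told apart from a change per cell.

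Phgdh, which catalyses the first step of serine synthesis, was highest with 0.2 µg of MCC. Its arrays read 9.26, 9.49 and 9.71 log2 for 102S at 0.2 µg, 9.01, 9.39 and 9.68 for 102S at 2 µg, 9.82, 10.29 and 10.55 for MCC at 0.2 µg, and 9.65, 9.79 and 9.65 with 2 µg of MCC. Every array with 0.2 µg of MCC lay above the 9 others, while 2 µg of MCC and both 102S groups overlapped. At 0.2 µg MCC exceeded 102S by 0.73 ± 0.20 log2 (adjusted p = 0.028), with 0.56, 0.80 and 0.84 within replicate numbers 1, 2 and 3. At 2 µg the difference was 0.34 ± 0.20 (95% interval -0.10 to 0.77; adjusted p = 0.346), and it passed with the β-actin covariate, at 0.57 (adjusted p = 0.00136).

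The call of Phgdh at 0.2 µg was lost without 102S 0.2 µg replicate 1 (adjusted p = 0.114) or replicate 2 (0.0804), without MCC 0.2 µg replicate 2 (0.103) or replicate 3 (0.117), with a fit of only the arrays compared (0.0816), and when both arrays with the highest β-actin values were omitted (0.0618, difference 0.68). In 3 of 4 groups the array with the highest β-actin difference also had the highest Phgdh reading. With the β-actin difference as a covariate the peptide difference of Phgdh was 0.62 at 0.2 µg (adjusted p = 0.000282), and its difference between the doses of MCC was -0.15 (adjusted p = 0.568). Between the doses of MCC Phgdh differed by -0.53 ± 0.20 (adjusted p = 0.203). That difference passed without MCC 0.2 µg replicate 1, at -0.72 (adjusted p = 0.0379), or with replicates 2 and 3 alone (-0.70, 0.035). It also passed with the replicate number as a block, as given at the end. By the other probe sets of Phgdh the difference between the doses of MCC was -0.375, -0.42 and -0.03. None of them passed (limma, adjusted p = 0.238, 0.232 and 0.917). Between the doses of 102S Phgdh differed by -0.13 (95% interval -0.56 to 0.30). Ordered by mean it stood at 9.36 ± 0.34 for 102S at 2 µg, 9.49 ± 0.23 for 102S at 0.2 µg, 9.70 ± 0.08 for MCC at 2 µg and 10.22 ± 0.37 for MCC at 0.2 µg (SD, n = 3). No neighbours passed where they were tested, and 0.2 µg of 102S and 2 µg of MCC overlapped. At unmatched doses 0.2 µg of MCC exceeded 2 µg of 102S by 0.86 ± 0.20 (adjusted p = 0.0423), a call lost in 8 of 12 omissions of 1 array (every array for MCC at 2 µg, replicates 1 and 2 for 102S at 2 µg, replicates 2 and 3 for MCC at 0.2 µg and replicate 2 with 0.2 µg of 102S; highest adjusted p = 0.182).

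Other probe sets of both genes were compared with the ones used above. The second probe set of Psat1 was higher with MCC by 1.16 ± 0.22 log2 at 2 µg and by 1.23 ± 0.22 at 0.2 µg, and both passed (adjusted p = 0.00656 and 0.00314). In 4 of 4 groups it was highest on the array with the highest β-actin difference, where the first probe set was highest in 0 of 4. The 4 single-symbol probe sets of Phgdh, read on the same arrays, were all called higher with MCC at 0.2 µg, by 0.54 to 0.76. For 0.2 µg of MCC against 2 µg of 102S all 4 were called too, by 0.59 to 0.905. At 2 µg they were higher by 0.34 to 0.56, and 1 of the 4 passed (0.56 ± 0.12, adjusted p = 0.0117). Its arrays spanned 8.44 to 8.65 for MCC at 2 µg and 7.81 to 8.13 for 102S at 2 µg, without overlap. All 4 carry the suffix x, which Affymetrix gives to probe sets whose probes can match other transcripts. The level of Phgdh is therefore less certain than that of Psat1 by its first probe set. The second probe set of Psat1 carries another suffix, s, and was not checked for matches to other transcripts.

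**Figure D3:**
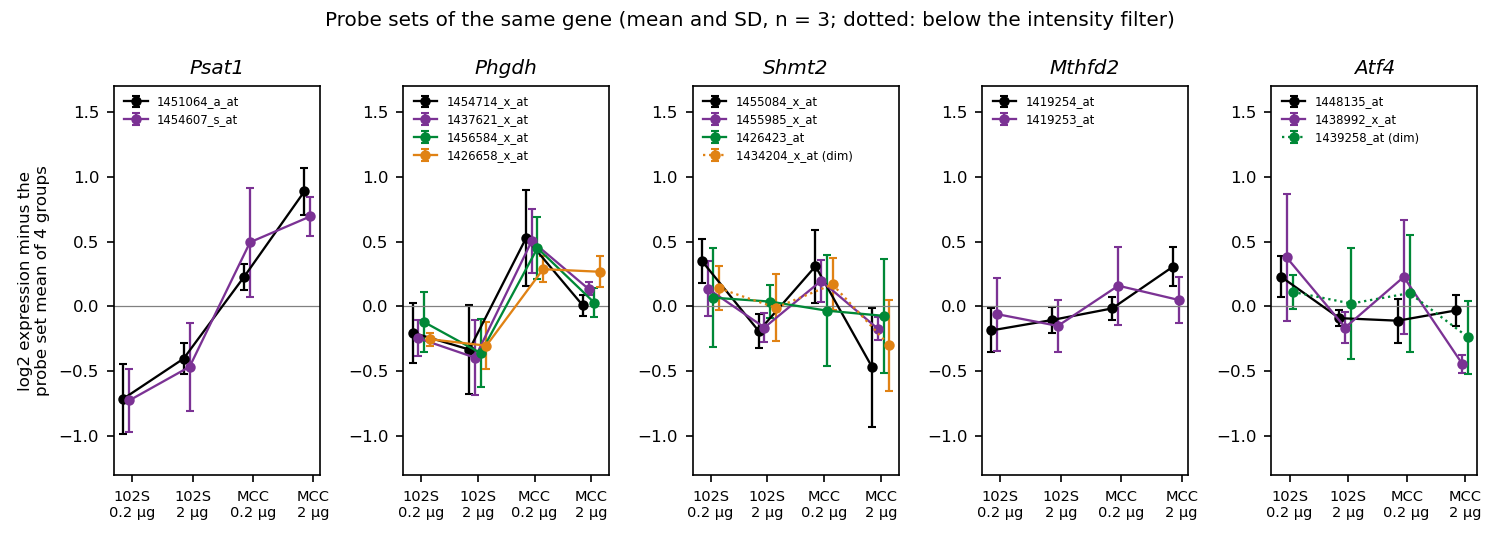
Group means of every probe set of the 5 members with 2 or more of them and a tested one, as log2 expression minus that probe set's mean over the 4 groups; whiskers are SD (n = 3) and dotted lines are probe sets below the intensity filter. Both probe sets of Psat1 are higher with MCC, the 4 of Phgdh are above their mean for MCC at 0.2 µg, and the tested ones of Atf4 lie on opposite sides of it there.

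In the mitochondrial steps that follow, Shmt2 had its lower means in both 2 µg groups and the Mthfd2 means had the order of those of Psat1, and neither gene passed in any of the comparisons. Shmt2, which splits serine into glycine and a folate-bound carbon, read 6.98, 7.31 and 7.22 log2 for 102S at 0.2 µg, 6.64, 6.50 and 6.76 for 102S at 2 µg, 7.07, 6.88 and 7.44 for MCC at 0.2 µg, and 6.54, 6.68 and 5.82 with 2 µg of MCC. Within each peptide the 2 doses did not overlap. The dose difference was -0.78 ± 0.22 for MCC (95% interval -1.26 to -0.31; adjusted p = 0.105) and -0.54 ± 0.22 for 102S (-1.02 to -0.06; adjusted p = 0.302). The difference between the doses of MCC passed only with the replicate number as a block, as given at the end. The peptides differed by -0.29 (-0.77 to 0.19) at 2 µg and -0.04 (-0.52 to 0.44) at 0.2 µg. A second tested probe set gave -0.36 and -0.30 for the doses of MCC and 102S, another -0.04 and -0.03, and the last lay below the filter. The probe set used above and the second one carry the suffix x, as those of Phgdh do. The one with -0.04 and -0.03 does not. In 4 of 4 groups the second probe set was highest on the array with the highest β-actin difference. In order, Shmt2 had means (± SD, n = 3) of 6.35 ± 0.46 for MCC at 2 µg, 6.63 ± 0.13 for 102S at 2 µg, 7.13 ± 0.28 for MCC at 0.2 µg and 7.17 ± 0.17 for 102S at 0.2 µg, and no neighbours passed.

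Mthfd2, the mitochondrial enzyme that oxidises that folate product, read 8.61, 8.57 and 8.31 log2 for 102S at 0.2 µg, 8.47, 8.62 and 8.66 for 102S at 2 µg, 8.66, 8.58 and 8.76 for MCC at 0.2 µg, and 8.99, 9.14 and 8.85 with 2 µg of MCC. The arrays with 2 µg of MCC lay above the 9 others, which overlapped. Its difference between the peptides at 2 µg was 0.41 ± 0.12 (95% interval 0.15 to 0.68), just short of the threshold (adjusted p = 0.0515). It passed without 102S 0.2 µg replicate 3 (adjusted p = 0.0324) or MCC 2 µg replicate 3 (0.0481), with quantile normalization (0.0156), a stricter filter (0.0435) or the β-actin covariate (0.0243), and with both arrays of the highest β-actin values left out (0.036). It also passed with the replicate number as a block, as given at the end. At 0.2 µg the peptides differed by 0.17 (-0.09 to 0.44). The dose difference was 0.32 ± 0.12 for MCC (0.06 to 0.59; adjusted p = 0.203) and 0.08 (-0.18 to 0.35) for 102S. The second probe set of Mthfd2 gave 0.19 for the peptides at 2 µg and -0.12 for the dose of MCC, both not called. Its group means spanned 0.31 log2, against 0.50 for the first.

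Of the stress factors, Atf4 had its highest mean with the weakest stimulus. Its arrays read 9.41, 9.27 and 9.09 log2 for 102S at 0.2 µg, 9.02, 8.90 and 8.91 for 102S at 2 µg, 9.03, 8.73 and 9.02 for MCC at 0.2 µg, and 9.06, 9.07 and 8.87 with 2 µg of MCC. The 3 arrays with 0.2 µg of 102S lay above the 9 others, which overlapped. MCC differed from 102S by -0.33 ± 0.12 at 0.2 µg (95% interval -0.60 to -0.07; adjusted p = 0.0913) and by 0.05 (-0.21 to 0.32) at 2 µg. The difference at 0.2 µg passed without 102S 0.2 µg replicate 3 (-0.42, adjusted p = 0.0421), with median centring (-0.38, 0.0493) and with the β-actin difference as a covariate (-0.30, 0.0339). It also passed with the replicate number as a block, as given at the end. The doses of 102S differed by -0.31 ± 0.12 (-0.58 to -0.05; adjusted p = 0.264, and 0.0427 with the covariate) and those of MCC by 0.07 (-0.19 to 0.34). A second tested probe set of Atf4 also had its highest mean with 0.2 µg of 102S, at 8.14, where it overlapped 0.2 µg of MCC. It gave another order of the other groups, with -0.68 ± 0.24 for the dose of MCC (adjusted p = 0.187) and -0.15 for the peptides at 0.2 µg. This probe set carries the suffix x, as those of Phgdh do, and the remaining one lay below the filter. In 3 of 4 groups that second probe set was highest on the array with the highest β-actin difference.

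Ddit3, which encodes the factor CHOP induced downstream of ATF4 under prolonged stress, was lowest with 2 µg of MCC. Its arrays read 7.92, 8.04 and 8.39 log2 for 102S at 0.2 µg, 8.02, 8.38 and 8.43 for 102S at 2 µg, 7.89, 8.34 and 8.30 for MCC at 0.2 µg, and 7.95, 7.88 and 7.41 with 2 µg of MCC. At 2 µg the peptides did not overlap, by 7.95 against 8.02. The difference there was -0.53 ± 0.19 (95% interval -0.95 to -0.12; adjusted p = 0.107), with -0.08, -0.50 and -1.02 within replicate numbers 1, 2 and 3, and it passed with replicates 2 and 3 alone (-0.76, adjusted p = 0.0469). At 0.2 µg it was 0.06 (-0.36 to 0.48). The dose differences were -0.43 (-0.85 to -0.01; adjusted p = 0.263) for MCC and 0.16 (-0.26 to 0.58) for 102S.

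The test of whether the peptide difference changed with dose called 0 of the 9 members (limma), against 0.0738% of all probe sets called higher, 0.693% lower and 0.767% in all. Its value is how far the peptide difference at the high dose exceeds the one at the low dose. Unadjusted p was under 0.05 for 3 of 9 members and for 8.64% of all probe sets. They were Slc7a5 (0.56, 95% interval 0.08 to 1.05), Atf4 (0.39, 0.01 to 0.76) and Ddit3 (-0.59, -1.19 to -0.001), with adjusted p = 0.479, 0.555 and 0.577. For Psat1 the value was 0.35 (-0.12 to 0.82) and for Phgdh -0.40 (-1.01 to 0.22). The fall of Slc7a5 with the dose of 102S is therefore not shown to differ from its difference between the doses of MCC, and the rise of Phgdh with MCC at 0.2 µg is not shown to differ from the difference at 2 µg. For 0.2 µg of MCC against 2 µg of 102S, 2 of 9 were higher, Slc7a5 and Phgdh, against 1.56% of all probe sets called higher and 2.48% in all. Of those calls 63.1% were higher, against 51.2% after median centring. The groups did not overlap in 4 of 9 genes, against 22.9% of all probe sets.

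The genes whose patterns lay nearest were found for the 3 members with the widest range of group means, by the root mean square difference of log2 values centred over the 12 arrays, among 7944 other genes. For Psat1 they were Ptpn11, a tyrosine phosphatase (0.18 log2), Kpna2, a nuclear import receptor (0.18), and Slbp, which binds histone mRNA (0.21), where the median over all genes was 0.69. For Slc7a5 they were Mthfd1, a cytosolic folate enzyme (0.19), the CTP synthase Ctps (0.23) and Tmem216 (0.24), with a median of 0.50. For Phgdh they were the DNA methyltransferase Dnmt1 (0.14), Shmt1, the cytosolic counterpart of Shmt2 (0.145), and the nucleotide pyrophosphatase Dctpp1 (0.15), with a median of 0.48. Mthfd1, like Slc7a5, had its higher means with 0.2 µg, at 8.12 and 8.05 for 102S and MCC, and its lower ones with 2 µg, at 7.41 for both peptides. Shmt1, like Phgdh, was highest for MCC at 0.2 µg, at 7.48 against 6.76 to 6.86 in the other groups. Within that group Phgdh, Dnmt1, Shmt1 and Dctpp1 all rose from replicate 1 to replicate 3. The β-actin difference rose there too, at 0.74, 1.78 and 2.33. Its part in the nearness of these genes was not tested. Between members the nearest pair was Slc1a5 and Mthfd2 (0.17), and Slc7a5 lay nearer to Shmt2 (0.34) than to Psat1 (0.85).

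**Figure D4:**
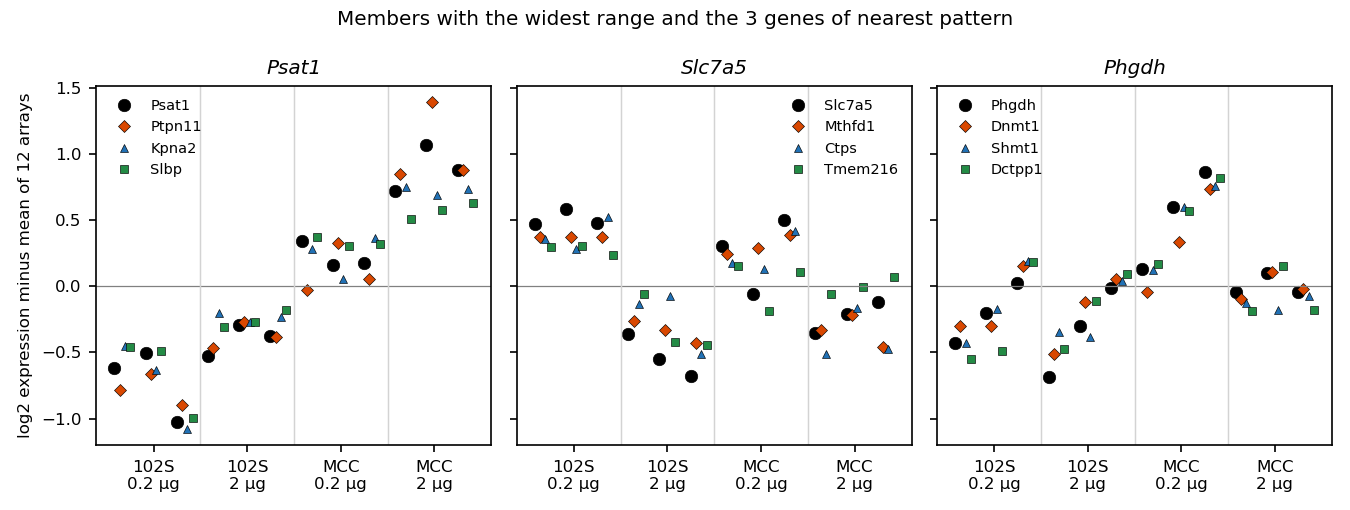
Centred log2 expression (value minus the gene's mean over 12 arrays) of Psat1, Slc7a5 and Phgdh, in black, with the 3 genes of nearest pattern in colour. Each group holds 3 arrays, in order of replicate number. Psat1 and its neighbours have higher means with MCC, Slc7a5 and its neighbours have lower means at 2 µg than at 0.2 µg of 102S, and Phgdh and its neighbours are highest with 0.2 µg of MCC.

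Other genes of the same pathways were followed in 7 lists of 123 genes, of which 99 were found on the array and 82 passed the filter. Of the 82, 6 were called between the peptides at 2 µg (7.32%) and 9 at 0.2 µg (11%), beside 10.3% and 14.3% of all probe sets, 1 between the doses of MCC (1.22%, beside 1.76%) and 2 between those of 102S (2.44%, beside 3.16%). Among other serine, glycine and folate enzymes and carriers, 7 of 18 were tested. With MCC 1 of these 7 was higher at 2 µg and 2 at 0.2 µg, with 0 lower at either dose. They were Ahcy, which clears S-adenosylhomocysteine (0.45 ± 0.11 and 0.67 ± 0.11 log2, adjusted p = 0.0259 and 0.00175), and at 0.2 µg the folate carrier Slc19a1 (0.50 ± 0.15, adjusted p = 0.0426). Mthfd1 was lower at the higher dose of both peptides, by -0.64 ± 0.11 for MCC and -0.71 ± 0.11 for 102S (adjusted p = 0.0142 and 0.00327), the only one of the 7 called for dose. Psph, of the last step of serine synthesis, was called in none of the comparisons. Between the peptides it differed by 0.06 at 2 µg and 0.18 at 0.2 µg (limma, adjusted p = 0.814 and 0.352). The list's median difference was 0.06 at 2 µg and 0.20 at 0.2 µg for the peptides, and -0.17 and -0.09 for the doses of MCC and 102S.

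Of 18 other amino acid transporters, 6 were tested and 6 more lay below the filter, among them the cystine carrier Slc7a11 and the arginine carrier Slc7a1. The neutral amino acid transporter Slc38a2 was called lower with MCC at 0.2 µg (-0.57 ± 0.16, adjusted p = 0.0321), and 0 others were called in the 4 matched comparisons. The median differences were -0.02 at 2 µg and -0.19 at 0.2 µg for the peptides, and 0.01 and -0.23 for the doses of MCC and 102S.

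Of 22 other ATF4 and integrated stress response genes 14 were tested, and 1 was called, the transcription factor Cebpb, a dimer partner of ATF4. It was lower with MCC by -1.12 ± 0.22 at 2 µg and -0.90 ± 0.22 at 0.2 µg (adjusted p = 0.0068 and 0.0164). Chac1, Atf3 and Nupr1, induced strongly by ATF4 in stressed cells, lay below the filter. The list's median differences were -0.06 and 0.01 for the peptides at 2 and 0.2 µg, and -0.215 and 0.05 for the doses of MCC and 102S. All 14 endoplasmic reticulum stress genes were tested. The chaperone Dnajb9 was lower with MCC at both doses (-0.57 ± 0.15 and -0.62 ± 0.15, adjusted p = 0.0337 and 0.017) and the stress factor Xbp1 at 0.2 µg (-0.38 ± 0.12, adjusted p = 0.0486), while Edem1, a degradation factor, was higher at 2 µg (0.43 ± 0.12, adjusted p = 0.042). The other 11 were not called in any of the 4 matched comparisons, and the list's medians were -0.04 and 0.02 for the peptides and -0.10 and -0.14 for the doses.

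The 18 tested transfer RNA synthetases held 1 call at 0.2 µg and 1 for the dose of 102S, both of the isoleucine enzyme Iars (-0.55 ± 0.11 and -0.565 ± 0.11, adjusted p = 0.00433 and 0.0102). The list's medians were 0.07 and -0.17 for the peptides at 2 and 0.2 µg and -0.01 and -0.21 for the doses of MCC and 102S. Of 9 tested glutamine, glutamate and proline enzymes 1 was called, the mitochondrial aspartate aminotransferase Got2, higher with MCC at 2 µg (0.92 ± 0.23, adjusted p = 0.0259). That list's medians were -0.09 and -0.04 for the peptides, and 0.08 and -0.06 for the doses. Of 14 tested genes of amino acid sensing and mTORC1, Rheb, which activates the kinase, was lower with MCC at both doses (-0.44 ± 0.12 and -0.52 ± 0.12, adjusted p = 0.0345 and 0.0125), and Sesn3, a sestrin, was higher at 0.2 µg (0.70 ± 0.155, adjusted p = 0.00996). Its medians were -0.12 and -0.03 for the peptides, and 0.03 and 0.11 for the doses.

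**Figure D5:**
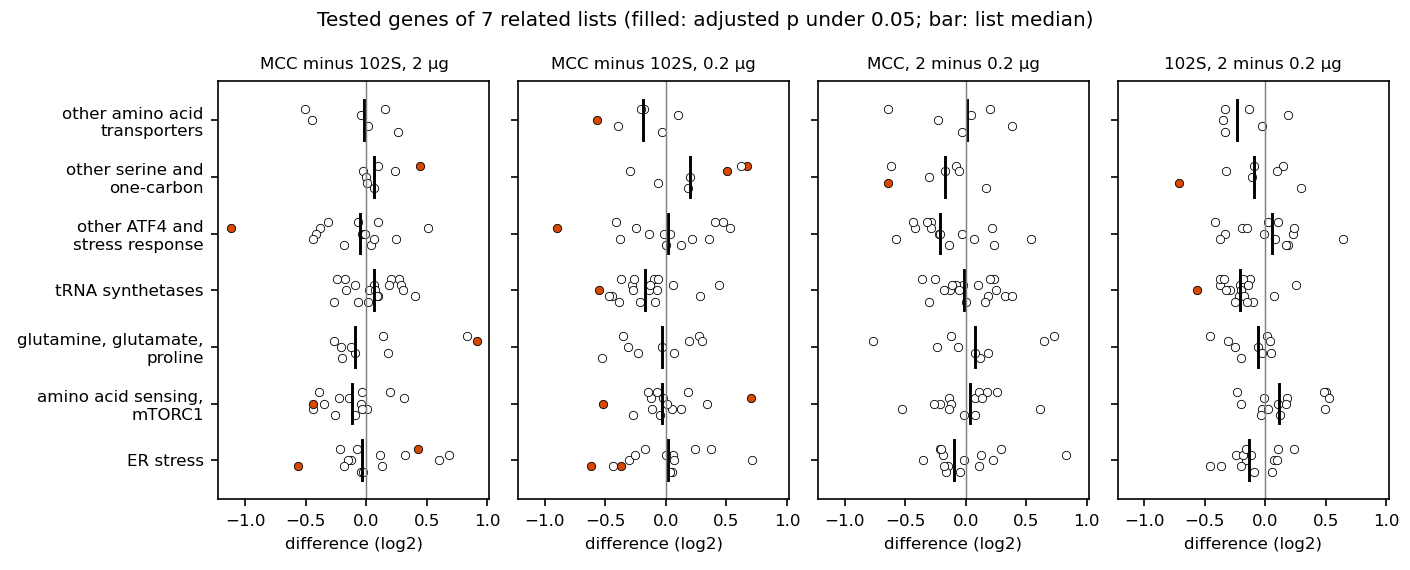
Differences in log2 expression of the 82 tested genes of 7 related lists in the 4 matched comparisons; each point is a gene, filled where the adjusted p was under 0.05, and bars are list medians. The list medians lie between -0.23 and 0.20, and the most negative filled point is Cebpb (-1.12, MCC minus 102S at 2 µg).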

How the data were processed

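The deposited tables give log2 expression, 1 value for each probe set on each array (1.86 to 14.7, from which the log2 scale was inferred). GCOS 1.4 is named, per the submitters' processing notes; probe summary, background correction and scaling are not given in the sources used here. RNA (100 ng) was labelled by 16 h of in vitro transcription, per the labels' protocols. Array medians differed by at most 0.089 log2, and the deposited values were not rescaled. The number of arrays limits the precision (median SE of a difference 0.18 log2). Of 22690 probe sets, 20393 had 1 gene symbol, 691 several and 1606 none. Entrez identifiers of 20364 matched a RefSeq table (GRCm38.p6), which changed 0 symbols. The 64 controls and probe sets with a mean under the 40th percentile (4.48) were left out, leaving 13556. The probe set with the highest mean stood for a gene. Group means were fitted with lmFit and eBayes (intensity trend) of limma 3.58.1 in R 4.3.3 over all 12 arrays, with 8 residual degrees of freedom; tests were 2-sided, Benjamini-Hochberg adjusted, with a threshold of 0.05. The fit was tested on simulated arrays. Members and lists were chosen with earlier results of these data known. Named were all members, up to 4 called genes per list by smallest p, Psph as the last enzyme of serine synthesis, and the 3 nearest genes of 3 members. The alternatives were 2 normalizations, 2 filters, a replicate block, no trend, only the arrays compared, a β-actin covariate, the dimmest tested probe set per gene, replicates 2 and 3 alone and omission of each array; 1 more, leaving out both arrays with the highest β-actin values, was chosen after seeing the data. Replicate numbers were not treated as pairs.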

Additional observations from a re-analysis of the deposited data

How the results depend on the processing

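The calls of Psat1 at both doses and of Slc7a5 for the dose of 102S held in all 11 alternatives and 12 omissions of 1 array, and 0 called differences changed sign. Of 1233 values of single members under other settings, 54 changed sign, and none of the 54 passed in either setting. Members called changed as follows. At 2 µg 1 became 2 with quantile normalization, the stricter filter, the dimmest probe set, replicates 2 and 3 alone or with both arrays of the highest β-actin values left out, and 4 with the β-actin covariate. At 0.2 µg 2 became 1 with only the arrays compared or with those arrays left out, and 3 with median centring or the covariate. For the dose of MCC 0 became 1 with median centring, quantile normalization or the stricter filter, and 2 with replicates 2 and 3 alone. For the dose of 102S 1 became 2 with the covariate. For 0.2 µg of MCC against 2 µg of 102S 2 became 1 without the trend or with replicates 2 and 3 alone, 0 with only the arrays compared or with those arrays left out, and 3 with quantile normalization, the stricter filter, the covariate or the dimmest probe set. The interaction kept 0 in every alternative run; it has no fit on only the arrays compared, which are all 12. The cause of these changes was not tested. Omitting 1 array gave 1 to 2 members at 2 µg, 1 to 3 at 0.2 µg, 0 to 2 for the dose of MCC, 1 for that of 102S, 0 for the interaction and 0 to 3 for the unmatched doses.

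With the replicate number as a block, members called were 2 at 2 µg (Mthfd2 gained, 0.0303), 3 at 0.2 µg (Atf4 gained, 0.0378), 3 for the dose of MCC (Psat1 higher, Phgdh and Shmt2 lower at 2 µg; adjusted p = 0.0135, 0.0203 and 0.0405 by limma), 1 for that of 102S, 0 for the interaction and 3 for the unmatched doses (Psat1 gained, 0.0164), while all probe sets called rose from 1392 to 2485, 1939 to 3496, 239 to 1563, 429 to 828, 104 to 321 and 336 to 1147. Deviations of same-numbered arrays correlated between -0.287 and 0.822, over 0.1 in 16 of 18 pairs, and 10 of 12 arrays correlated best with one of their own number. The numbers were treated as pairing the samples only if all 18 pairs passed 0.1, so the unblocked values are the ones reported. The pairs that fell short, -0.064 and -0.287, were both of replicate number 2. Unblocked tests leave any difference between the numbers in the error. The correlations, Xist and Eif2s3y point to a shared source that the labels do not state. In the same order of comparisons, the β-actin covariate gave 3330, 3645, 542, 1420, 285 and 1176 probe sets. Replicates 2 and 3 alone gave 772, 591, 269 and 130 for 2 µg, the dose of MCC, that of 102S and the unmatched doses; only the arrays compared gave 1071, 74 and 150 for 0.2 µg, the dose of MCC and the unmatched doses; and leaving out both arrays with the highest β-actin values, the dose of MCC gave 97. Omissions of 1 array spanned 700 to 1601, 1051 to 2785, 61 to 1208, 210 to 501, 62 to 142 and 85 to 654. Median centring moved the share called higher from 54.9% to 44.6% at 0.2 µg and from 63.1% to 51.2% for the unmatched doses. Asns is limited by signal, its probe sets lying below the filter.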
